A study of Mus musculus with 19 samples.

Results

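The comparison described here asks whether a muscle responds to ischemia differently when the microRNA miR-210 has been inhibited. It is the ischemia response after anti-miR-210 (ischemic minus non-ischemic) minus the ischemia response after scramble, and it uses all 16 arrays of injected animals out of the 19 in the series. Gastrocnemius muscle came from CD1 mice aged 2 months, an outbred strain, and total RNA was measured on single-colour Illumina bead arrays. The groups were anti-miR-210 ischemic muscle (4 arrays), anti-miR-210 non-ischemic muscle (4), scramble ischemic muscle (4) and scramble non-ischemic muscle (4). Every animal in these groups had received 12 mg/kg of a phosphorothioate oligonucleotide of 15 bases with locked nucleic acid, in 200 µl of saline through the tail vein, 2 days before the femoral artery was dissected, and muscle was harvested 3 days after that operation. The remaining 3 arrays are of untreated muscle and enter no comparison. Whether non-ischemic muscle is the unoperated limb of the same mice is not stated. Nor do the labels call the numbered replicates different animals, and every p-value therefore rests on the scatter among arrays, part of which could be technical.

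miR-210 is the microRNA most regularly induced by hypoxia-inducible factor. It binds messenger RNAs through its seed, the short stretch near its 5′ end, and lowers their level or translation. Its published targets include the iron-sulfur cluster scaffold Iscu and subunits or assembly factors of the respiratory chain, through which it restrains mitochondrial respiration in hypoxic cells. In this design, target messenger RNA released by an inhibitor would appear as a more positive ischemia response after anti-miR-210.

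The sequences below show what the injected oligonucleotides can pair with, written 5′ to 3′.
mmu-miR-210-3p: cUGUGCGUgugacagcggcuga
anti-miR-210: gctgtcacACGCACA
SCR: cgtctagccacctag
The mature miRNA is from RefSeq (GRCm38.p6, chr7:141221407-141221428, minus strand), and its seed, bases 2 to 8, is in capitals. The anti-miR is complementary to bases 2 to 16 of the miRNA over its whole length of 15 bases, and its capitals mark the complement of the seed. The longest run of the scrambled oligonucleotide that is complementary to the miRNA has 4 bases, opposite bases 17 to 20. No probe on the array is named for miR-210, so its level and the extent of its inhibition were not measured here.

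Arrays were set on a common scale by background correction and quantile normalization, and levels are given as normalised log2 signal, on which 1 unit is a 2-fold step. Of 45281 probes, 18824 were detected (p below 0.05) on 4 arrays or more of the 16, and they represented 13217 genes. Skeletal muscle markers averaged 11.73 to 12.27 in anti-miR-210 ischemic, 12.71 to 13.06 in anti-miR-210 non-ischemic, 11.33 to 12.14 in scramble ischemic and 12.74 to 12.88 in scramble non-ischemic muscle. One array stood apart in a way unrelated to its label. Replicate 1 of scramble non-ischemic muscle detected 35 of 36 liver transcripts at a mean log2 signal of 7.3, while the other 15 arrays of injected animals lay between 4.5 and 5.48. Arrays also differed in brightness before normalization, and those values are given beside the myeloid and matrix genes.

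The ischemia response was large and nearly the same with either oligonucleotide. After anti-miR-210, 7368 genes (55.7% of those tested) passed an adjusted p of 0.05 in limma's moderated test, 3828 higher and 3540 lower in ischemic muscle. After scramble, 7472 (56.5%) passed, 3896 higher and 3576 lower. Both responses were called for 6177 genes, which ran in the same direction for 6170 (3179 higher and 2991 lower in ischemic muscle) and in opposite directions for 7. Across the 13217 genes, which are not independent of each other, the responses correlated at r = 0.945 and shared their sign in 85.9% of genes. The sizes were close: the SD over genes was 1.13 after anti-miR-210 and 1.15 after scramble, and the median absolute response of genes called in both with the same direction was 1.16 after anti-miR-210 and 1.19 after scramble.

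**Figure D1:**
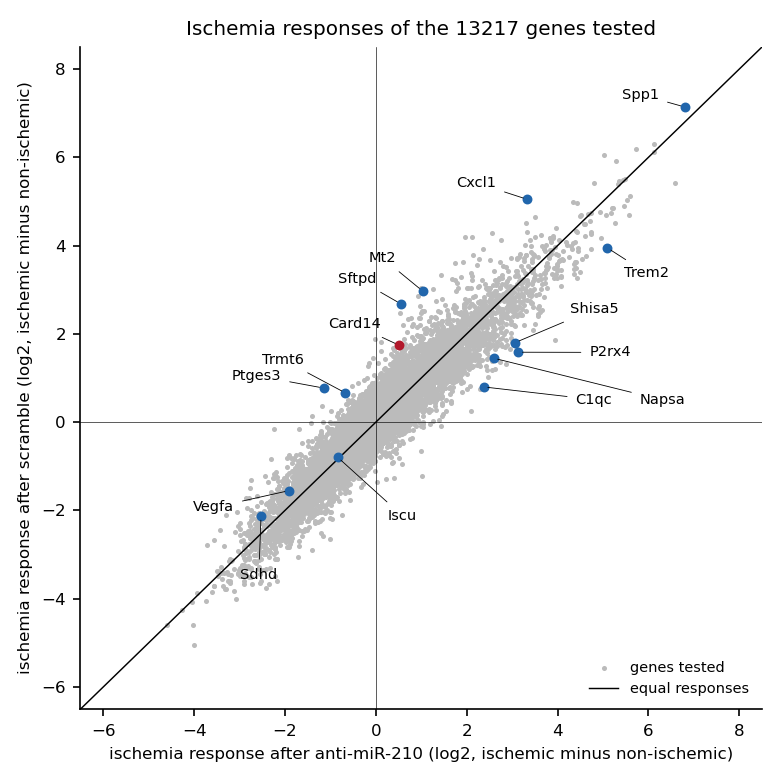
Each grey point is one of the 13217 genes, with its ischemia response after anti-miR-210 on the horizontal axis and after scramble on the vertical axis (log2, ischemic minus non-ischemic); the diagonal marks equal responses. Genes described in the text are labelled, with Card14 in red. Most points follow the diagonal (r = 0.945); Card14, Sftpd, Trmt6 and Ptges3 lie above it, and Shisa5, P2rx4, Napsa and C1qc below it.

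The difference of the responses was called for a single gene, Card14, which is 0.00757% of the genes tested, and for 0 genes in the positive direction. At an unadjusted p under 0.05 there were 1107 genes (8.38%), of which 541 (4.09%) had a more positive and 566 (4.28%) a less positive response after anti-miR-210. The median difference over all genes was 0.01, with quartiles of -0.21 and 0.23. The median standard error of a difference was 0.265, so a typical 95% interval reached 0.558 to either side. For 9547 genes (72.2%) the interval lay wholly within 1 log2 unit of 0, while 239 genes (1.81%) had a difference of at least 1 in size. There were 2486 genes were called in one ischemia response and not in the other, 1191 after anti-miR-210 and 1295 after scramble. The difference itself was called for 0 of these, and its median size among them was 0.373.

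Card14 encodes a caspase recruitment domain scaffold that activates NF-κB and is best known from keratinocytes. In ischemic muscle its normalised log2 signal was 4.75, 4.7, 4.89 and 4.93 on the anti-miR-210 arrays, against 6.28, 5.91, 5.98 and 6.08 on the scramble arrays. These groups did not overlap. In non-ischemic muscle it was not well above background on any of the 8 arrays, at 4.44, 4.36, 4.26 and 4.19 on the anti-miR-210 arrays, against 4.19, 4.37, 4.46 and 4.26 on the scramble arrays. Ischemic muscle was therefore at least 1.19-fold above the detection floor of non-ischemic muscle after anti-miR-210 and at least 2.86-fold above it after scramble. Card14 rose with ischemia in both arms, by 0.51 ± 0.13 after anti-miR-210 and 1.75 ± 0.13 after scramble (SE, n = 4 per group). The difference of the fitted responses was -1.24 ± 0.18 (SE; 95% interval -1.62 to -0.86; adjusted p = 0.03, limma). A further kept probe of Card14, detected on 6 arrays, gave -0.35. The call was lost with brightness as a covariate (adjusted p = 0.921), with the replicate number as a block (0.106), with 8 pairs as a block (0.187) and under cyclic loess (0.108). With brightness as a covariate the difference was still -1.14, and no gene had an adjusted p below 0.921 in limma. Brightness itself differed in this contrast, so a lost call in that fit is not particular to Card14. The call was also lost, at a smaller difference, without background correction (-0.52), in the authors' value table (-0.66, adjusted p = 0.0877) and with the mean of all probes (-0.79, adjusted p = 0.193). Leaving out any 1 of 11 of the 16 arrays also ended it, with adjusted p of 0.0573 to 0.137: every non-ischemic array except replicate 3 of scramble, replicates 1 and 3 of scramble ischemic muscle, and replicates 2 and 3 of anti-miR-210 ischemic muscle.

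The genes with the next smallest p-values are described by their values, since none passed the adjusted threshold. Sftpd, surfactant protein D, a collectin known from the lung, had 4.78, 4.87, 4.28 and 5.71 on the anti-miR-210 arrays, against 7.07, 6.28, 6.9 and 7.21 on the scramble arrays in ischemic muscle, and these did not overlap. Its level in non-ischemic muscle was 4.22, 4.39, 4.63 and 4.19 on the anti-miR-210 arrays, against 4.15, 4.22, 4.23 and 4.15 on the scramble arrays, detected on 1 of the 8 arrays. After scramble, ischemic muscle was at least 4.99-fold above the detection floor of non-ischemic muscle. The fitted response was 0.55 after anti-miR-210 and 2.68 after scramble, a difference of -2.13 ± 0.34 (SE; adjusted p = 0.0505, limma).

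Trmt6, a subunit of a tRNA methyltransferase, and Ptges3, the Hsp90 co-chaperone p23, belonged to the 7 genes called in both responses with opposite directions. Trmt6 had 5.16, 4.81, 4.74 and 5.01 on the anti-miR-210 arrays, against 5.6, 5.78, 5.57 and 6.17 on the scramble arrays in ischemic muscle. In non-ischemic muscle it had 5.54, 5.7, 5.72 and 5.43 on the anti-miR-210 arrays, against 4.87, 5.23, 5.31 and 5.04 on the scramble arrays. The ischemic and non-ischemic arrays of each oligonucleotide did not overlap, with the ischemic ones lower after anti-miR-210 and higher after scramble. Its response was -0.67 after anti-miR-210 and 0.66 after scramble (difference -1.34 ± 0.22, adjusted p = 0.0609, limma). Ptges3 had 7.09, 6.16, 5.8 and 6.68 on the anti-miR-210 arrays, against 7.53, 7.81, 7.83 and 7.8 on the scramble arrays in ischemic muscle, without overlap, and its response was -1.15 after anti-miR-210 and 0.77 after scramble (difference -1.92 ± 0.34, adjusted p = 0.0855). The nuclear import receptor Kpnb1, named after its values were seen, is the only other one of the 7 with a gene symbol. It responded by -0.62 after anti-miR-210 and 0.51 after scramble.

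Ccdc88b, a cytoskeletal linker of immune cells, and Rrn3, an initiation factor of RNA polymerase I, closed the group of less positive responses. The fitted response of Ccdc88b was 0.80 after anti-miR-210 and 2.18 after scramble, where it was at least 3.69-fold above the floor of undetected non-ischemic muscle. Rrn3 was lower in ischemic muscle in both arms, by -1.75 after anti-miR-210 and -0.74 after scramble. Further probes of Trmt6, Ccdc88b and Rrn3 were detected on 0 arrays.

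Among genes with a more positive response after anti-miR-210, none was called. Shisa5, a p53-inducible membrane protein, had 10.04, 10.3, 9.67 and 9.47 on the anti-miR-210 arrays, against 8.86, 9.27, 8.82 and 9.31 on the scramble arrays in ischemic muscle, without overlap. In non-ischemic muscle it had 6.99, 6.53, 7.05 and 6.63 on the anti-miR-210 arrays, against 7.41, 7.31, 6.99 and 7.34 on the scramble arrays, with overlap. Its response was 3.07 after anti-miR-210 and 1.80 after scramble, a difference of 1.27 ± 0.27 (95% interval 0.695 to 1.84; adjusted p = 0.21, limma), and a further probe detected on all 16 arrays gave 0.86. Os9, a lectin of endoplasmic reticulum-associated degradation, responded by 1.76 after anti-miR-210 and 0.98 after scramble. Its other probe, detected on 6 arrays, gave a difference of -0.21, against 0.78 for the probe used. Ero1b, an oxidase of disulfide formation, had a fitted response of 0.88 after anti-miR-210 and -0.09 after scramble. It was detected on 1 of 4 anti-miR-210 non-ischemic arrays, and its difference of 0.98 was 0.34 without background correction.

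P2rx4, an ATP-gated ion channel found on macrophages, had 7.78, 8.13, 7.88 and 7.18 on the anti-miR-210 arrays, against 6.71, 7.46, 6.6 and 6.48 on the scramble arrays in ischemic muscle. These groups overlapped through replicate 4 of anti-miR-210 and replicate 2 of scramble. The response was 3.14 after anti-miR-210 and 1.58 after scramble (difference 1.55 ± 0.34), with a further probe at 0.67. Napsa, an aspartic peptidase known from lung and kidney, had 7.23, 6.73, 7.37 and 6.83 on the anti-miR-210 arrays, against 5.63, 6.24, 5.91 and 6.37 on the scramble arrays in ischemic muscle, without overlap. It was near background in non-ischemic muscle, detected on 1 of 4 anti-miR-210 and 2 of 4 scramble arrays. Its fitted response was 2.60 after anti-miR-210 and 1.45 after scramble, the difference was 0.66 without background correction, and all 3 of its probes had a positive difference (0.52 to 1.15). The histone gene H2bc9, whose signal may include near-identical histone copies, was lower in ischemic muscle in both arms, by -1.69 after anti-miR-210 and -2.69 after scramble. The 4 other probes that met the rule for naming carry no gene symbol.

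**Figure D2:**
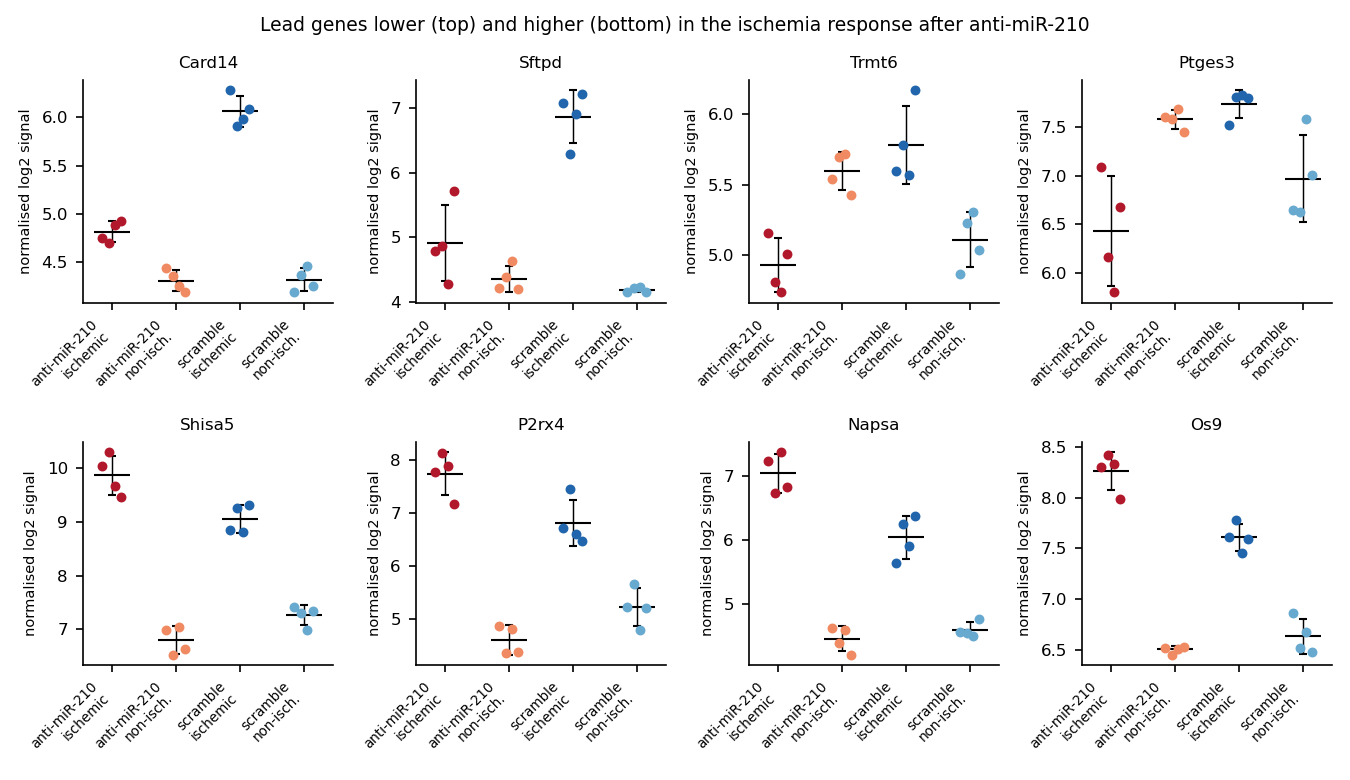
Normalised log2 signal of 8 genes on each of the 16 arrays, by group, with the mean (long bar) and SD (whiskers) of 4 arrays. In the top row the anti-miR-210 ischemic arrays lie below the scramble ischemic arrays, and in the bottom row above them, with overlap for P2rx4 alone. The 8 genes were chosen by a small p for the difference, which favours such separation.

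For published miR-210 targets the comparison shows whether their messenger RNA responded differently to ischemia after anti-miR-210, and a shift of equal size in ischemic and non-ischemic muscle cancels in it. Of 33 listed targets, 24 were tested and none was called for the difference. The interval included 0 for 21 of them and lay within 1 log2 unit of 0 for 18. The 4 mitochondrial targets had a median difference of 0.01, the same as the 0.01 of all genes. Their median was -0.13 under cyclic loess and -0.35 with array brightness as a covariate. Of the other 20, 11 were above 0 and 9 below, with a median of 0.08, or -0.01 with undetected levels set to the detection floor.

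Iscu, the scaffold on which iron-sulfur clusters are built, had 11.33, 10.98, 11.07 and 10.76 on the anti-miR-210 arrays, against 11.08, 11.12, 10.85 and 10.64 on the scramble arrays in ischemic muscle. In non-ischemic muscle it had 12.04, 11.71, 11.89 and 11.85 on the anti-miR-210 arrays, against 11.81, 11.54, 12.01 and 11.53 on the scramble arrays. Ischemic arrays were lower than non-ischemic ones in each arm without overlap, while the oligonucleotides overlapped in both states. Iscu fell with ischemia by 0.84 log2 units after anti-miR-210 and by 0.80 after scramble, and the difference was -0.04 ± 0.23 (95% interval -0.52 to 0.44). Sdhd, a membrane anchor of complex II, had 5.84, 5.31, 5.2 and 5.22 on the anti-miR-210 arrays, against 6.03, 5.59, 5.97 and 5.48 on the scramble arrays in ischemic muscle, and these overlapped. It fell by 2.53 log2 units after anti-miR-210 and by 2.13 after scramble (difference -0.40, interval -1.09 to 0.29). Ndufa4, a subunit of complex IV, differed by 0.05 (interval -0.55 to 0.65), and Cox10, an enzyme on the path to the heme A of complex IV, by 0.24 (interval -0.19 to 0.67). A difference of 1 above 0 lay outside the interval of each of the 4, while the interval of Sdhd reached down to -1.09. Within ischemic muscle, anti-miR-210 minus scramble was 0.11 ± 0.16 for Iscu, -0.38 ± 0.23 for Sdhd, 0.08 ± 0.20 for Ndufa4 and 0.34 ± 0.14 for Cox10 (SE). Within non-ischemic muscle it was 0.15 ± 0.16 for Iscu, 0.02 ± 0.23 for Sdhd, 0.03 ± 0.20 for Ndufa4 and 0.10 ± 0.14 for Cox10. None of these was called.

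Stmn1, Ptpn1 and E2f3 each reached an unadjusted p under 0.05, and their differences did not share a direction. They are 15% of the 20 targets tested outside the mitochondrial list, beside 8.38% of all genes. Stmn1, which destabilises microtubules, had 4.82, 4.64, 4.55 and 4.9 on the anti-miR-210 arrays, against 5.37, 5.49, 5.5 and 5.35 on the scramble arrays in ischemic muscle, without overlap, and was not well above background on any non-ischemic array. Ischemic muscle was at least 1.12-fold above that floor after anti-miR-210 and at least 1.84-fold after scramble. Its fitted response was 0.45 after anti-miR-210 and 1.16 after scramble (difference -0.72 ± 0.18, adjusted p = 0.408, limma). Ptpn1, the tyrosine phosphatase that dampens insulin signalling, had 6.16, 5.97, 5.91 and 6.23 on the anti-miR-210 arrays, against 6.33, 6.59, 6.98 and 6.77 on the scramble arrays in ischemic muscle, again without overlap. Its difference was -0.56 (interval -1.04 to -0.08, adjusted p = 0.53). For E2f3, a cell cycle transcription factor and one of the first described targets, the difference was 0.44 (interval 0.03 to 0.85, adjusted p = 0.578), with a response of 0.59 after anti-miR-210 and 0.15 after scramble. Fgfrl1, a decoy receptor for fibroblast growth factors, differed by -0.17 (interval -1.03 to 0.70). The ephrin Efna3, the regulator of hypoxia-inducible factor Gpd1l, and the apoptosis gene Casp8ap2 had probes detected on 0 of the 16 arrays and were not tested.

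**Figure D3:**
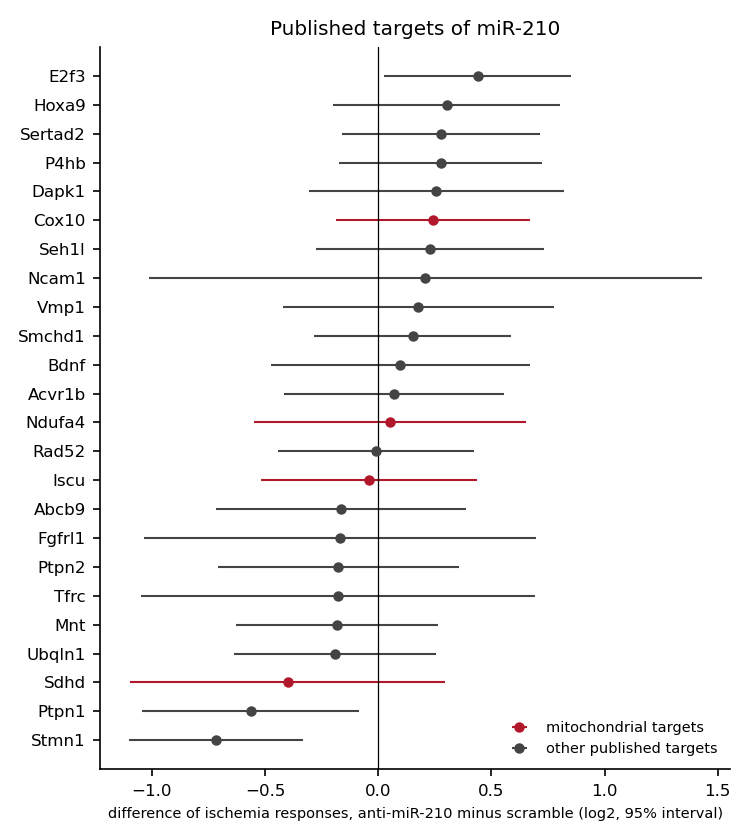
Difference of the ischemia responses (anti-miR-210 minus scramble, log2) with its 95% interval for each of the 24 published miR-210 targets tested, with the 4 mitochondrial targets in red. Points lie on both sides of 0, from -0.72 (Stmn1) to 0.44 (E2f3), and 21 intervals include 0.

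Hypoxia-inducible genes were likewise split. Of 28 tested, 14 were above 0 and 14 below, with a median of 0. Vegfa, the main angiogenic ligand, fell with ischemia by 1.91 log2 units after anti-miR-210 and by 1.55 after scramble (difference -0.36, interval -0.89 to 0.17), and its other kept probe gave 0.01. P4ha2, a collagen prolyl hydroxylase, had a difference of 0.81 ± 0.30 (adjusted p = 0.491, limma), with 0.72 from a further probe. Egln3, the oxygen sensor PHD3, chosen after its values were seen, had -0.91 ± 0.36 (adjusted p = 0.52). Hmox1, heme oxygenase, differed by 0.27 with an interval from -1.07 to 1.61, and Spp1, osteopontin, by -0.34 (interval -1.28 to 0.60), although both rose with ischemia in each arm.

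The genes in the lists below that had the smallest p of their list were named by rule, and the other members named were chosen after their values were seen. Respiratory chain genes fell with ischemia in both arms. Of 69 respiratory chain genes tested, 66 were lower and 1 higher in ischemic muscle after anti-miR-210, against 66 lower and 2 higher after scramble; 26.8% of all genes were called lower after anti-miR-210 and 27.1% after scramble. The median response was -1.17 after anti-miR-210 and -1.41 after scramble. The median difference was 0.15, with 48 members above 0 and 21 below. An unadjusted p under 0.05 was reached by 8.7% of members, beside 8.38% of all genes, with 2 members above 0 against 4 below. Those below 0 included Uqcrb of complex III, which responded by 0.68 after anti-miR-210 and 2.04 after scramble, and Atp5a1 of the ATP synthase, which responded by -2.78 after anti-miR-210 and -1.50 after scramble. The difference of Uqcrb was -1.36, and -0.02 with brightness as a covariate. Tricarboxylic acid cycle genes had a median difference of 0.14 and fatty acid oxidation genes one of 0.13. An unadjusted p under 0.05 was reached by 3 members in the cycle (15%) and 1 in fatty acid oxidation (4.55%), all below 0. Of all genes, 4.28% did so in that direction. Among the members were Dld, the shared dehydrogenase subunit of the oxoacid complexes (-0.95 ± 0.32), and Idh2, the mitochondrial isocitrate dehydrogenase (-1.08 ± 0.43). Acads, a short-chain acyl-CoA dehydrogenase, had -0.57 from the probe used and 0.12 from its other kept probe. With array brightness as a covariate the medians turned to -0.17, -0.27 and -0.27 for the 3 lists.

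Glycolytic genes had a median difference of 0.06 and none at an unadjusted p under 0.05, the smallest p being that of Pgk1, phosphoglycerate kinase (-0.50, interval -1.03 to 0.03). Of 38 antioxidant and redox genes, 21 were above 0 and 17 below, with a median of 0.16. An unadjusted p under 0.05 was reached by 7 (18.4%), all above 0, where 4.09% of all genes did so in that direction. They included the glutathione peroxidase Gpx1 (0.64 ± 0.24), the transcription factor Nfe2l2 (0.68 ± 0.27), the NADPH oxidase Nox4 (0.65 ± 0.27) and the mitochondrial peroxiredoxin Prdx3 (0.74 ± 0.35). None had an adjusted p below 0.491, and with array brightness as a covariate the list's median was -0.08.

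Markers of macrophages had the highest median difference of the 33 lists in this fit. Of 32 monocyte and macrophage markers tested, 25 were above 0 and 7 below, with a median of 0.57, against 0.01 for all genes. None was called, and 8 (25%) reached an unadjusted p under 0.05, all above 0, where 4.09% of all genes did so in that direction. The median response was 3.32 after anti-miR-210 and 2.73 after scramble, and the mean level of the list was 7.94 to 8.73 in anti-miR-210 ischemic, 5.09 to 5.28 in anti-miR-210 non-ischemic, 7.65 to 8.33 in scramble ischemic and 5.04 to 5.47 in scramble non-ischemic muscle. In whole muscle, more cells of a type and more RNA per cell cannot be told apart.

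Trem2, a lipid receptor of macrophages, had 9.59, 9.99, 8.98 and 8.98 on the anti-miR-210 arrays, against 7.48, 8.69, 9.16 and 8.34 on the scramble arrays in ischemic muscle, and these overlapped through replicate 3 of scramble. In non-ischemic anti-miR-210 muscle it was not well above background, so ischemic muscle was at least 28.3-fold higher there. Its fitted response was 5.10 after anti-miR-210 and 3.95 after scramble (difference 1.15 ± 0.40, adjusted p = 0.475, limma). C1qc, a chain of the complement component C1q that macrophages secrete, had 9.35, 9.34, 9.33 and 7.19 on the anti-miR-210 arrays, against 7.21, 8.41, 7.59 and 6.24 on the scramble arrays in ischemic muscle. On 3 of the 4 anti-miR-210 arrays it was above every scramble array, and replicate 4 was below 3 of the 4 scramble arrays. Its difference was 1.58 ± 0.66, beside 1.16 ± 0.40 for C1qa and 1.37 ± 0.64 for C1qb. The surface or signalling proteins Gpnmb (1.17 ± 0.41), Tyrobp (1.13 ± 0.44) and Fcgr1 (0.97 ± 0.37) also had positive differences.

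Neutrophil markers ran the other way in this fit. Of 11 tested, 9 were below 0 and 2 above, with a median of -0.59, which turned to 0.20 with array brightness as a covariate. The mean level of the list was 6.55 to 7.79 in anti-miR-210 ischemic and 6.90 to 8.52 in scramble ischemic muscle. Its non-ischemic level was 4.52 to 5.36 after anti-miR-210 and 4.73 to 5.26 after scramble. Csf3r, the receptor of granulocyte colony-stimulating factor, had 6.72, 6.21, 5.87 and 7.83 on the anti-miR-210 arrays, against 7.81, 7.21, 8.07 and 9.18 on the scramble arrays in ischemic muscle. The groups overlapped, and the highest anti-miR-210 value was again that of replicate 4. Its response was 2.22 after anti-miR-210 and 3.57 after scramble (difference -1.35 ± 0.52, adjusted p = 0.504, limma), and its other kept probe gave -0.80. No other neutrophil marker reached an unadjusted p under 0.05, so 9.09% of the list did so, beside 8.38% of all genes. The calgranulin genes S100a8 and S100a9, abundant in neutrophils, had differences of -0.59 and -0.81 with p-values of 0.572 and 0.422.

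Cytokines and chemokines had differences on both sides of 0. Cxcl1, a neutrophil attractant, had 8.01, 7.83, 7.08 and 9.1 on the anti-miR-210 arrays, against 9.59, 9.41, 9.01 and 10.67 on the scramble arrays in ischemic muscle. The groups overlapped through replicate 4 of anti-miR-210. It rose with ischemia in both arms, by 3.33 after anti-miR-210 and 5.05 after scramble (difference -1.72 ± 0.51, adjusted p = 0.465, limma). Cxcl2 had -1.45 ± 0.50 and the cytokine Il1b -1.15 ± 0.52. Members of the same list above 0 included Tgfb1 (0.86 ± 0.29), the stromal chemokine Cxcl12 (0.84 ± 0.40), the eosinophil chemokine Ccl11 (0.84 ± 0.36) and the interleukin Il10 (0.43 ± 0.20), and the list's median was 0.06. Prf1, perforin of cytotoxic lymphocytes, had 9.61, 9.16, 7.39 and 11.01 on the anti-miR-210 arrays, against 11.48, 10.91, 11.69 and 12.36 on the scramble arrays in ischemic muscle, with 1 anti-miR-210 array overlapping. The difference of Prf1 was -2.06 ± 0.69 (adjusted p = 0.475), and -0.37 with brightness as a covariate. A further probe of Prf1 was detected on 0 arrays. Lymphocyte markers as a list had 7 of 11 above 0 and a median of 0.10.

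Matrix and fibroblast genes lay above 0 with the macrophage markers. The matrix and fibroblast lists share Col1a1, Col3a1, Dcn and Lum, so their medians are not independent. Of 37 extracellular matrix genes, 29 were above 0 and 8 below, with a median of 0.51. An unadjusted p under 0.05 was reached by 5 (13.5%), all above 0, beside 4.09% of all genes in that direction. Mmp2, a gelatinase of stromal cells, responded by 2.07 after anti-miR-210 and 0.82 after scramble (difference 1.25 ± 0.45, adjusted p = 0.481, limma). Fn1, fibronectin, had 9.86, 9.49, 8.93 and 7.52 on the anti-miR-210 arrays, against 7.61, 7.6, 6.59 and 7.72 on the scramble arrays in ischemic muscle. All anti-miR-210 arrays but replicate 4 were above all scramble arrays, and its difference was 1.39 ± 0.55. Col1a1, the main chain of type I collagen, had 1.28 with an interval from -0.17 to 2.73, and Col1a2 had 0.87 ± 0.38. Of 12 fibroblast markers, 9 were above 0, with a median of 0.43, led by the growth factor receptor Pdgfra (0.91 ± 0.32, adjusted p = 0.475).

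Interferon-stimulated genes had 18 of 22 members above 0 and a median of 0.29. Their median response was 0.83 after anti-miR-210 and 0.48 after scramble, and 16 were called higher in ischemic muscle after anti-miR-210, against 10 after scramble, beside 29% and 29.5% of all genes. Whether these counts differ was tested only gene by gene, with 0 called. The members that reached an unadjusted p under 0.05 included the transcription factor Irf9 (0.61 ± 0.22) and the antiviral membrane protein Bst2 (0.76 ± 0.34).

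Array brightness moved with the same contrast as these lists. The mean signal of all probes before normalization was 193.3, 264.8, 259.2 and 200.7 on the anti-miR-210 ischemic arrays and 170.5, 215.9, 204.9 and 226.2 on the anti-miR-210 non-ischemic arrays. It was 171.7, 183.9, 136.2 and 123.6 on the scramble ischemic arrays and 230.4, 203, 232 and 240.2 on the scramble non-ischemic arrays. Scramble ischemic muscle thus had the lowest group mean, and each of its arrays was below every anti-miR-210 ischemic array. The difference of the ischemia responses in mean signal was 97.64 (p = 0.00408, exact two-sided permutation test over 4900 relabellings of the oligonucleotide within each state). With brightness as a covariate, the median difference became 0.21 for macrophage markers, 1.07 for extracellular matrix genes, 0.59 for fibroblast markers, 0.56 for interferon-stimulated genes and 0.20 for neutrophil markers. Leaving out 1 array at a time gave 0.5 to 0.75 for macrophage, 0.31 to 0.72 for matrix and -0.85 to -0.16 for neutrophil markers. The part of brightness in these results was not tested beyond that covariate.

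**Figure D4:**
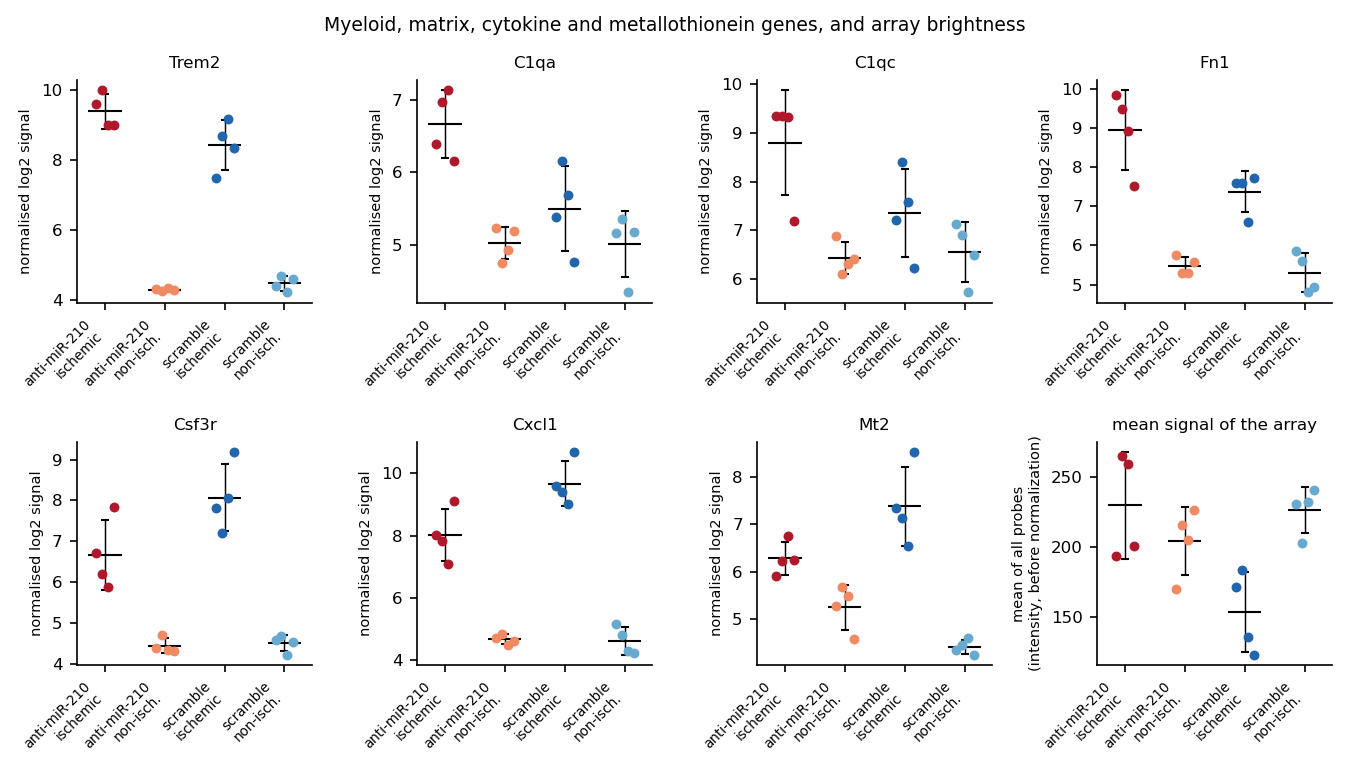
Normalised log2 signal of 7 myeloid, matrix, cytokine and metallothionein genes, and the mean intensity of each array before normalization, on the 16 arrays by group with mean (long bar) and SD (whiskers) of 4. C1qc reaches 9.33 to 9.35 on 3 anti-miR-210 ischemic arrays and 7.19 on the other one; the scramble ischemic arrays have a mean intensity of 123.6 to 183.9, below the 193.3 to 264.8 of the anti-miR-210 ischemic arrays.

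Metallothioneins, which bind zinc and copper and rise with glucocorticoids and inflammation, had some of the larger differences of single genes. Mt2 had 5.91, 6.23, 6.76 and 6.24 on the anti-miR-210 arrays, against 7.34, 7.13, 6.54 and 8.52 on the scramble arrays in ischemic muscle. In non-ischemic muscle it had 5.27, 5.67, 5.49 and 4.58 on the anti-miR-210 arrays, against 4.34, 4.45, 4.61 and 4.25 on the scramble arrays, so that the groups overlapped in each state, with higher anti-miR-210 means in non-ischemic and higher scramble means in ischemic muscle. It rose in both arms, with fitted responses of 1.03 after anti-miR-210 and 2.97 after scramble (difference -1.94 ± 0.45, adjusted p = 0.28, limma). Scramble non-ischemic muscle was above background on 1 of 4 arrays, and the difference was -1.04 without background correction. Mt1 had -0.88 ± 0.40, which was -1.69 under cyclic loess and -1.42 under median scaling. Under the quantile normalization used here its ischemic levels were nearly equal, at 13.69 to 14.01 after anti-miR-210 and 13.74 to 13.86 after scramble. The list of metallothioneins and acute glucocorticoid responses had 10 of 15 members below 0 and a median of -0.07. The non-ischemic levels of Mt1 were 10.59 to 12.38 after anti-miR-210 and 10.36 to 10.92 after scramble.

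Chaperones and the unfolded protein response had a median of -0.25, with 22 of 34 members below 0. That median was -0.03 under median scaling and -0.06 with brightness as a covariate. An unadjusted p under 0.05 was reached by 23.5% of members, beside 8.38% of all genes. The 5 below 0 were the mitochondrial chaperonins Hspe1 (-0.93 ± 0.32) and Hspd1 (-0.70 ± 0.25), the small heat shock proteins Cryab (-0.998 ± 0.34) and Hspb8 (-0.68 ± 0.23), and the disulfide isomerase Pdia6 (-0.66 ± 0.24). The 3 above 0 were the endoplasmic reticulum proteins Pdia3 (0.85 ± 0.33), Pdia4 (0.51 ± 0.23) and Sdf2l1 (0.77 ± 0.31). Hspe1 had 7.33, 6.13, 6.85 and 6.54 on the anti-miR-210 arrays, against 7.74, 8.17, 7.47 and 7.4 on the scramble arrays in ischemic muscle, without overlap. Of the apoptosis genes, 2 of 31 (6.45%) reached an unadjusted p under 0.05, beside 8.38% of all genes: the TRAIL receptor Tnfrsf10b and the adaptor Fadd (-0.65 ± 0.23). Tnfrsf10b had 5.08, 4.99, 5.47 and 5.39 on the anti-miR-210 arrays, against 6.2, 6.03, 6.64 and 6.96 on the scramble arrays in ischemic muscle, without overlap. It fell with ischemia by 1.18 log2 units after anti-miR-210, with a response of 0.38 after scramble that was not called (difference -1.55 ± 0.34, adjusted p = 0.222, limma). That difference was -0.80 without background correction and -0.71 with brightness as a covariate. Its other probes, detected on 1 to 3 arrays, gave -0.18 to 0.21.

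The 10 skeletal muscle markers had a median difference of 0, which was -0.49 under cyclic loess and -0.23 under median scaling. Fast fibre genes had a median of 0.18 (22 of 33 above 0) and slow fibre genes 0.03 (9 of 16). The fast fibre median was 0 under cyclic loess and -0.10 with brightness as a covariate. Ckm, muscle creatine kinase, had 12.85, 13.3, 13.52 and 13 on the anti-miR-210 arrays, against 12.79, 12.57, 12.59 and 11.98 on the scramble arrays in ischemic muscle, without overlap, and a response of -0.22 after anti-miR-210 and -0.98 after scramble (difference 0.76 ± 0.27, adjusted p = 0.478, limma). Under cyclic loess the difference of Ckm was 0.38, and with brightness as a covariate 0.30. Mb, myoglobin, differed by 0.95 with an interval from -0.56 to 2.45. Replicate 4 of scramble ischemic muscle, at 9.1, was far below the other 3 at 11.76 to 12.38, and without it the difference was 0.18. A further probe of Mb gave 1.41. Regeneration genes had a median of 0.20 with 14 of 22 above 0. That median was -0.20 without replicate 1 of anti-miR-210 ischemic muscle and -0.05 with brightness as a covariate. Myog, the transcription factor of differentiating myoblasts, rose in both arms, by 1.59 after anti-miR-210 and 2.26 after scramble (difference -0.67 ± 0.31, adjusted p = 0.587). Genes of atrophy had a median of 0.07, and those of the circadian clock -0.10, with Per3 at -0.50 ± 0.23.

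Of 20 endothelial markers, 17 were below 0, with a median of -0.21, quartiles of -0.31 and -0.13, and none at an unadjusted p under 0.05. The mean level of the list was 7.75 to 8.94 in anti-miR-210 ischemic and 8.02 to 8.84 in scramble ischemic muscle, which overlapped. Cldn5, the tight junction claudin of endothelium, had the smallest p (-0.71, interval -1.56 to 0.15). The median turned to 0.22 with brightness as a covariate and to 0.05 under median scaling. Angiogenic ligands and receptors had a median of -0.16, with 1 of 30 at an unadjusted p under 0.05, Notch1 (-0.82 ± 0.34). Smooth muscle and pericyte markers had 0.06, with Higd1b at 0.70 ± 0.26, and immediate early genes -0.24, which turned to 0.22 with brightness as a covariate, with Jun at 0.71 ± 0.27.

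The remaining lists had no called member. Cell cycle genes had a median of -0.08, and their smallest p was that of Nusap1, a protein of the mitotic spindle (fitted response 2.81 after anti-miR-210 and 3.54 after scramble, at least 10.2-fold in the scramble arm, difference -0.73 ± 0.20). Adipocyte markers had a median of -0.39 with 10 of 14 below 0, although Car3, a carbonic anhydrase also abundant in muscle, had 1.36 ± 0.62. Erythroid markers had -0.09, with Slc4a1 at -0.51 (interval -1.61 to 0.59), and Schwann cell and nerve markers -0.12. Liver markers had a median of 0.21 over 17 tested, which became -0.37 without replicate 1 of scramble non-ischemic muscle. For Serpina1d, an alpha-1 antitrypsin, that array had 8.23 and the other 3 of its group 4.34 to 4.80; its difference was 1.12, and 0.20 without that array.

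**Figure D5:**
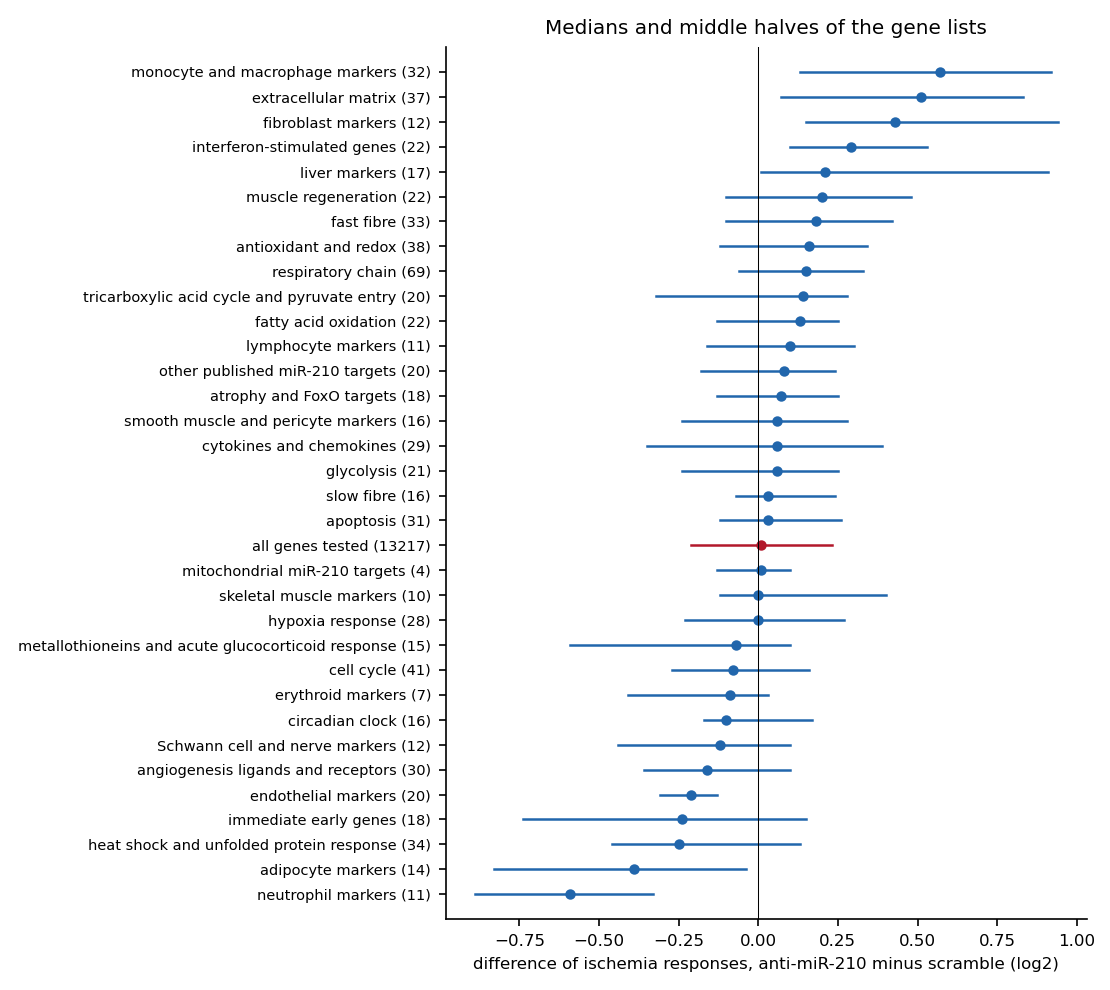
Median difference of the ischemia responses (point, anti-miR-210 minus scramble, log2) and quartiles (line) over the tested members of each gene list, with the number tested in brackets and all genes in red. Macrophage (0.57) and matrix (0.51) lists lie highest and neutrophil markers (-0.59) lowest, beside 0.01 for all genes.

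The parts of the difference can also be read within each state. The fit shares its 16 arrays between these comparisons, so their results are given side by side and not as support for each other. In ischemic muscle, 80 genes (0.605%) were called between anti-miR-210 and scramble, 8 (0.0605%) higher and 72 (0.545%) lower after anti-miR-210; with cyclic loess normalization these were 11 higher and 35 lower, and with median scaling 538 higher and 1967 lower. With brightness as a covariate 0 were called, with 737 at an unadjusted p under 0.05. In non-ischemic muscle 1 gene was called (0.00757%), Ap1b1, a large subunit of a clathrin adaptor, which was named after its values were seen. It had 7.41, 7.32, 7.71 and 8.06 on the anti-miR-210 arrays, against 8.93, 9.1, 8.75 and 9.29 on the scramble arrays in non-ischemic muscle, without overlap (-1.39 ± 0.17, adjusted p = 0.00356, limma). In ischemic muscle it had 9.48, 8.99, 9.35 and 9.02 on the anti-miR-210 arrays, against 10.22, 10.25, 10.2 and 10.3 on the scramble arrays, lower after anti-miR-210 as well (-1.03 ± 0.17). Its ischemia responses of 1.59 after anti-miR-210 and 1.22 after scramble differed by 0.36 (interval -0.16 to 0.88).

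The arrays of one group were not equally far apart. On the next principal component of the 16 arrays, which held 5.68% of the variance against 77.3% for the component that separated ischemic from non-ischemic muscle, the anti-miR-210 ischemic arrays were at -20.33, -31.33, -38.91 and 12.59 and the scramble ischemic arrays at 7.513, -2.048, 34.43 and 23.32. Replicate 4 of anti-miR-210 ischemic muscle lay among the scramble ischemic arrays, as it did for C1qc, Fn1, Csf3r and Prf1. Without it 48 genes were called for the difference, 11 higher and 37 lower. Without replicate 1 of the same group 9 were called, and without replicate 2 of scramble ischemic muscle 5. The other arrays gave 0 to 2 when left out.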

How the data were processed

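The authors deposited one table of non-normalized bead intensities with a detection p-value per probe and array, per the file headers; for the exporting software, the sources used here give nothing. The authors' deposited table of linear, quantile-normalized intensities served only as an alternative, after taking log2. RNA was extracted, amplified and biotin-labelled from muscle, per the labels' protocols. The 16 arrays of injected animals were background-corrected and quantile-normalized with neqc (limma 3.58.1 in R 4.3.3, offset 16), which gives log2 values. Probes detected (p below 0.05) on 4 or more arrays were kept, and the one with the highest mean stood for its gene. A linear model of the 4 group means was fitted across all 13217 genes with limma's empirical Bayes step, tested on simulated data, and p-values were Benjamini-Hochberg adjusted over all genes, with 0.05 as threshold. Probe names were updated through a RefSeq table, which gave 67.2% of the tested genes under their current symbol and 17.4% under an older one; 15.3% kept the name in the file. The number of arrays limits the precision. Genes were named by rule: for each sign the called genes or up to 8 with the smallest p, the member of each list with the smallest p, and a fixed set of published targets and hypoxia genes; others are marked as chosen after their values were seen. Some genes that met the rule are not reported here. Members and gene lists were chosen with earlier results of these data known. Alternatives covered normalization, background, filter, probe choice, variance prior, weights, brightness, replicate number and leaving out each array.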

Additional observations from a re-analysis of the deposited data

Results flagged for a closer look

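The difference of ischemia responses was called for Card14, at -1.24 on the log2 scale. The mean signal of the arrays before normalization differed between the ischemia responses by 97.64 intensity units (exact two-sided permutation p = 0.00408).

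Single arrays lay far from the other 3 of their group in 13 of the 268 groups of 4 examined, where chance gives about 1 in 20, or 13.4. In anti-miR-210 ischemic muscle these were Slc4a1 on replicate 4 (log2 signal 5.81), Hmox1 on replicate 2 (9.86) and C1qc on replicate 4 (7.19). In anti-miR-210 non-ischemic muscle they were Pgk1 on replicate 1 (12.08) and, on replicate 4, Prf1 (7.4), Serpina1d (4.91), Cox10 (10.63) and Vegfa (10.8). In scramble ischemic muscle they were Ptges3 on replicate 1 (7.53), Acads on replicate 3 (8.59) and Fn1 on replicate 3 (6.59). In scramble non-ischemic muscle they were Serpina1d on replicate 1 (8.23) and Fgfrl1 on replicate 3 (7.08).

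The 3 untreated arrays, which enter no comparison, held liver transcripts at mean log2 signals of 7.57, 9.48 and 11.31, with all 36 transcripts detected on each.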

How the results depend on the processing

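Against 1 gene called for the difference, cyclic loess, no background correction, the authors' value table, a stricter detection filter, the mean of all probes and brightness as a covariate gave 0, with 1188, 1081, 1101, 888, 1094 and 691 genes at an unadjusted p under 0.05 in limma. Median scaling gave 5, all 19 arrays 3, array quality weights 7 and a trended robust variance prior 2. Leaving out 1 array gave 0 to 48. Card14 passed under 11 of the 30 alternatives, with a difference of -1.52 to -0.52. For anti-miR-210 in ischemic muscle, with 80 called, cyclic loess gave 46, median scaling 2505, no filter on dim probes 37, all 19 arrays 154 (35 higher, 119 lower), weights 490 (167 higher, 323 lower) and brightness 0; leaving out 1 array gave 8 to 1164. For non-ischemic muscle, with 1 called, all 19 arrays gave 2, weights 4 and the trended prior 3, and leaving out 1 array 1 to 3. The ischemia response after scramble called 4552 genes with brightness as a covariate, against 7472. The cause of these changes was not tested. No tested value changed direction with a call. For pairing, the levels of each array were taken as deviations from its group mean. Between ischemic and non-ischemic arrays of the same replicate number, these deviations correlated at 0.12, 0.089, 0.24 and 0.11 after anti-miR-210 and 0.053, 0.063, 0.18 and 0.06 after scramble. The correlation was highest with the own number in 7 of 8 cases, a hint of pairing from the data. The labels do not state a pairing, and not every correlation passed 0.1, so the fit reported has no block. With the number as a replicate block the difference had 0 calls (1155 at an unadjusted p under 0.05) and the ischemic comparison 136; with 8 pairs as a fixed replicate block the difference had 0 (1269), and with a random replicate block 3. The fixed pairs cannot give the comparisons between oligonucleotides.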
